A study of Mus musculus with 12 samples.

Results

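The chemokine and chemokine receptor genes of the mouse were followed in haemogenic endothelium in which the transcription factor Sox7 was induced. They were chosen by name and not by level: every row of the deposited count table whose symbol is Ccl, Ccr, Cxcl, Cxcr, Cx3cl, Cx3cr, Xcl, Xcr or Ackr followed by a number, and at most 1 letter, and whose biotype is protein_coding. The family itself was chosen with earlier results of these data known, so its share of calls is not independent of them. The rule found 59 genes among the 41128 of the table. They are 37 ligands (23 CC, 12 CXC and 2 others) and 22 receptors (10 CC, 6 CXC, 2 others and 4 atypical). A further gene, Cxcl11, matches by name but is listed as a polymorphic pseudogene and was left out.

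The starting material was a mouse embryonic stem cell line, derived from Ainv18, in which doxycycline switches on a Sox7 transgene. Cells positive for FLK1, a receptor of early endothelial and blood precursors, were sorted on day 3.5 of embryoid body culture and grown for 48 h on gelatin in liquid blast medium, which holds serum, conditioned medium of D4T endothelial cells, VEGF and IL6. They were then cultured with 1 µg/ml doxycycline (Dox) or without it (untreated) for 6, 12 or 24 h, giving 6 groups of 2 libraries. All groups carry the same transgene and received the same medium. The samples hold no Dox-treated cells without the transgene, so an effect of Dox itself and an effect of Sox7 cannot be told apart. The labels do not say that the 2 libraries of a group came from separate cultures, so p-values measure the spread between these libraries only, which may be technical.

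The libraries held 13485804 to 35250074 counts, and each group had 1 library of at least 27516106 counts and 1 of at most 15429846. Sox7 stood at 52.1 to 81.7 CPM (read counts scaled to a common library size, with TMM factors) in the 6 untreated libraries and at 314 to 379 CPM in the 6 Dox libraries. Sox7 differed by a log2 fold change of 2.01 at 6 h, 2.58 at 12 h and 2.68 at 24 h. The counts include transcripts of the transgene where reads map to the Sox7 coding sequence. All 10 endothelial markers were expressed, with Cdh5 at 504 to 775 CPM. The cultures also held transcripts of other cell types: the summed level of 8 mesenchymal and smooth muscle markers was 6857 to 9754 CPM and that of 7 erythroid markers 941 to 1784 CPM.

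Chemokines are small secreted proteins that guide migrating cells, and are grouped as CC, CXC, C and CX3C by the spacing of their conserved cysteines. Their receptors are G protein-coupled receptors that signal through Gαi to the cytoskeleton, while the atypical receptors bind chemokines without that signal and scavenge or transport them. In the vessel wall and the embryonic blood-forming sites, CXCL12 and its receptor CXCR4 position blood stem and progenitor cells. Inflammatory CC chemokines and their receptors such as CCR1 and CCR2 are best known from monocytes and macrophages.

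Of the 59 genes, 24 were expressed, meaning a mean of at least 1 CPM in at least 1 of the 6 groups, and all 24 had counts in all 12 libraries. They were 13 ligands and 11 receptors. A further gene, Ccl27a, passed the filter on low counts but stayed under 1 CPM, so 25 genes were tested. Another 17 had 1 to 62 counts over all 12 libraries and no group mean above 0.396 CPM. These were the ligands Ccl5, Ccl12, Ccl20, Ccl28, Cxcl2, Cxcl3, Cxcl5, Cxcl14, Cxcl17 and Xcl1 and the receptors Ackr2, Ackr4, Ccr3, Ccr10, Cxcr3, Cxcr5 and Xcr1. The last 17 had no counts: the ligands Ccl1, Ccl8, Ccl11, Ccl19, Ccl21a, Ccl21b, Ccl22, Ccl24, Ccl26, Ccl27b, Cxcl9, Cxcl13 and Cxcl15 and the receptors Ccr6, Ccr8, Ccr9 and Cxcr1. A count of 0 allows up to 3 counts, which is 0.0838 to 0.222 CPM depending on the library, and covers counting error only. Ccl19, Ccl21a, Ccl21b, Ccl27a and Ccl27b lie in a region of chromosome 4 with near-identical gene copies, and how reads with several matches were counted is not given in the sources used here. Their low or absent counts are therefore uncertain.

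Levels were compared between genes in the authors' RPKM, which divides by gene length, as means over the 12 libraries. Cxcl12, the homeostatic ligand of CXCR4, was the most abundant at 44.8 RPKM, and its 12 values ran from 37.9 to 54.6. Of the other genes, only Ccl9 reached into this range, with 38.1 RPKM at its highest. Ccl17, a ligand of CCR4, followed at 21.5 RPKM (15.3 to 25.1). Ackr3, the scavenging receptor of CXCL12, stood at 16.1 RPKM (12.2 to 19.7), Cx3cl1, the membrane-bound fractalkine, at 15.1 (11.4 to 21.5) and Cxcr4 at 13.6 (9.26 to 16.6). The ranges of these 4 genes overlapped from each to the next.

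Of the inflammatory CC ligands, Ccl9 averaged 12.8 RPKM, Ccl2 12.5, Ccl6 8.43, Ccl3 8.20 and Ccl7 7.74. Ccl2 ranged from 10.0 to 16.3 RPKM and Ccl7 from 6.34 to 11.1, while Ccl9 ranged from 4.32 to 38.1, Ccl6 from 2.66 to 24.7 and Ccl3 from 3.004 to 24.1. Neighbours in this order overlapped. Cxcr6 (4.21 RPKM), Cxcl1 (4.08), Cxcl16 (3.102), Ackr1 (2.60), Ccl25 (1.67), Cx3cr1 (1.49), Ccl4 (1.41) and Cxcl10 (1.41) came next. Ccr7 (0.943 RPKM), Ccr2 (0.732), Cxcr2 (0.356), Ccr1 (0.326) and Ccr4 (0.316) were among the expressed receptors that averaged under 1 RPKM.

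**Figure D1:**
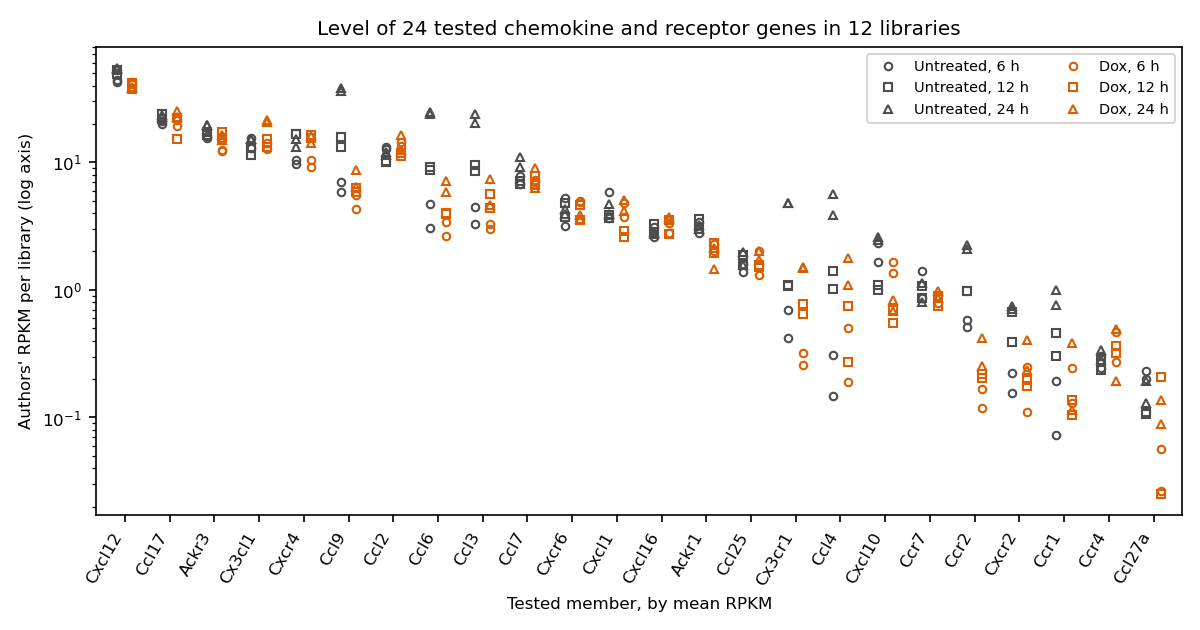
The authors' RPKM (log axis) of 24 tested genes, ordered by mean, in each of the 12 libraries; grey symbols are untreated and orange symbols Dox libraries, and circles, squares and triangles mark 6, 12 and 24 h. Cxcl12 stood highest at 37.9 to 54.6 RPKM, and Ccl9, Ccl6, Ccl3, Ccl4, Cx3cr1 and Ccr2 had their highest values in the untreated libraries of 24 h.

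Ligands and receptors known to bind each other were not always expressed together. Cxcl12 was expressed with both of its receptors, Cx3cl1 with Cx3cr1, Cxcl16 with Cxcr6, Cxcl1 with Cxcr2, Ccl17 with Ccr4, Ccl2 and Ccl7 with Ccr2, and Ccl3, Ccl6 and Ccl9 with Ccr1. Ccl25 was expressed without counts of its receptor Ccr9. Cxcl10 was expressed while its receptor Cxcr3 had 62 counts in all. Ccr7 was expressed without counts of its ligands Ccl19, Ccl21a or Ccl21b. These are transcripts of a mixed culture, and which cells carried them was not measured.

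Chemokine and receptor genes that passed the test with Dox were lower in all cases but 1, and their number was larger at each later hour. At 6 h, 3 of the 25 tested genes passed an adjusted p of 0.05, all lower with Dox (Ackr3, Ccr2 and Cx3cr1), against 1.54% of all 15347 tested genes (0.717% lower and 0.821% higher). At 12 h, 8 passed, all lower (Ccl3, Ccl6, Ccl9, Ccr1, Ccr2, Cx3cr1, Cxcl12 and Cxcr2), against 6.76% of all tested genes (3.51% lower and 3.26% higher). At 24 h, 13 were lower (among them Ackr1, Ackr3, Ccl3, Ccl4, Ccl6, Ccl9, Ccr1, Ccr2, Cx3cr1, Cxcl10, Cxcl12 and Cxcr2) and 1, Cx3cl1, was higher, against 11.0% of all tested genes (6.52% lower and 4.50% higher). The 13 lower genes are 52.0% of the 25, and 10 of them were at least 2-fold lower. The median log2 fold change of the 25 genes was -0.04 at 6 h, -0.36 at 12 h and -0.48 at 24 h, beside 0.01, -0.01 and -0.01 over all tested genes.

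All 8 genes lower at 12 h were also lower at 24 h, and Ccr2 and Cx3cr1 passed at all 3 hours. By class, 7 of 11 tested receptors and 6 of 14 tested ligands were lower at 24 h. The other 11 tested genes passed at no hour: Ccl2, Ccl7, Ccl17, Ccl25, Ccl27a, Ccr4, Ccr7, Cxcl1, Cxcl16, Cxcr4 and Cxcr6. By the 4 libraries of an hour, 7 of the 25 genes had groups that did not overlap at 6 h (6 lower and 1 higher), against 39.4% of all tested genes (19.7% in each direction). At 12 h these were 18 (15 lower and 3 higher), against 48.9% (25.7% lower and 23.2% higher), and at 24 h again 18 (15 lower and 3 higher), against 49.6% (26.0% lower and 23.5% higher). The count at 6 h lay under that background, and the lower genes at 12 and 24 h lay above it. Leaving out 1 library gave 1 to 2 calls at 6 h, 5 to 6 at 12 h and 10 to 13 at 24 h. In bulk RNA, fewer cells of a type and less RNA per cell cannot be told apart.

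**Figure D2:**
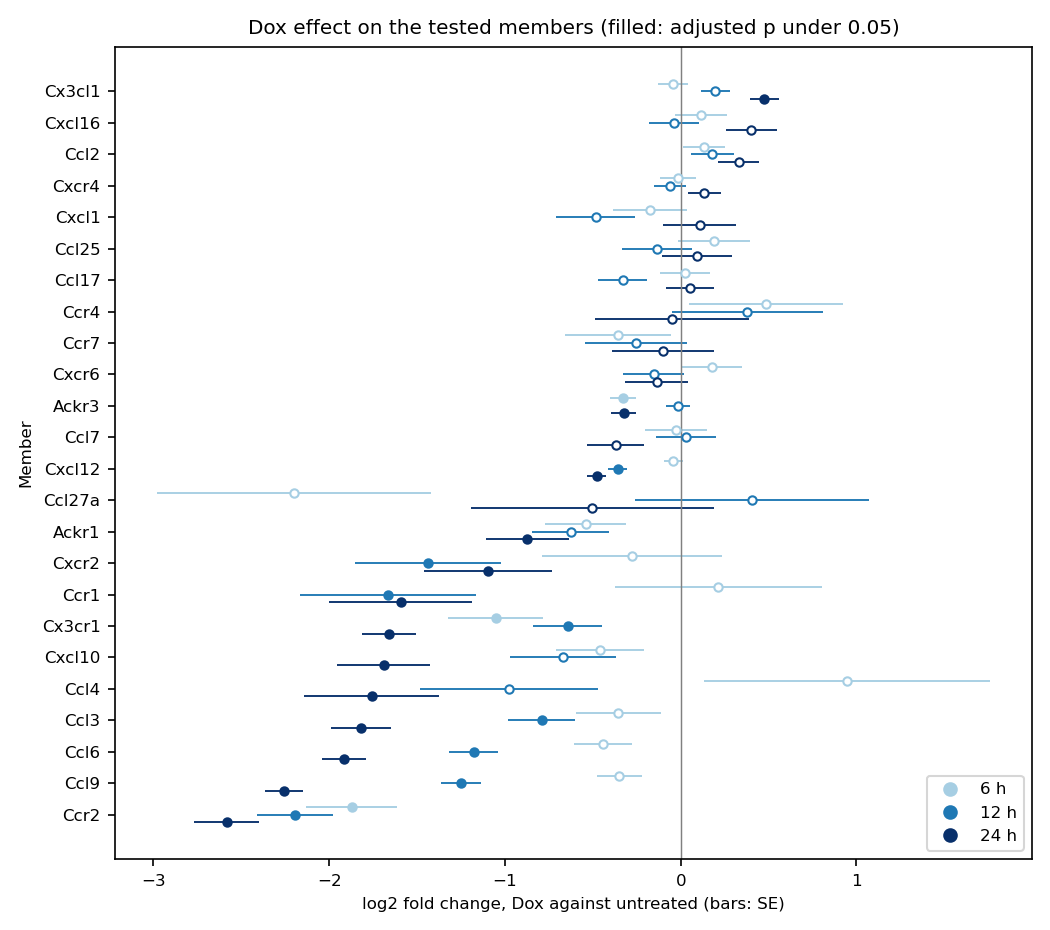
Fitted log2 fold change of Dox against untreated cells (x axis) for 24 tested genes, with bars of 1 SE, in light, mid and dark blue for 6, 12 and 24 h; filled points passed an adjusted p of 0.05. The genes lower at 24 h lie from -0.32 (Ackr3) to -2.58 (Ccr2), and Cx3cl1 lies at 0.48.

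The CC ligands Ccl9, Ccl6, Ccl3 and Ccl4 were much lower with Dox than in untreated cells at 24 h. Ccl9 and Ccl6 bind CCR1, and Ccl3 and Ccl4 encode macrophage inflammatory proteins 1α and 1β. At 6 h Ccl9 stood at 23.1 and 19.3 CPM in untreated cells and 14.5 and 18.7 with Dox. At 12 h it stood at 52.3 and 43.4 CPM against 19.2 and 20.8, and at 24 h at 120 and 127 CPM against 29.1 and 21.4. The untreated libraries climbed from hour to hour while all 6 Dox libraries stayed between 14.5 and 29.1 CPM, and the groups did not overlap at any hour. The log2 fold change was -0.35 ± 0.13 (SE) at 6 h (adjusted p = 0.24), -1.25 ± 0.11 at 12 h (9.2e-09) and -2.26 ± 0.11 at 24 h (1.8e-15), which is 4.77-fold lower.

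Ccl6 stood at 9.17 and 5.93 CPM untreated against 6.72 and 5.25 with Dox at 6 h, where the groups overlapped. It stood at 17.7 and 17.05 CPM against 7.57 and 7.76 at 12 h and at 46.6 and 48.3 CPM against 11.6 and 14.1 at 24 h, with no overlap at either hour. Its log2 fold change was -1.18 ± 0.14 at 12 h (adjusted p = 9.1e-07) and -1.92 ± 0.12 at 24 h (1.5e-12). At 24 h Ccl6 was thus 3.78-fold lower, next to the 4.77-fold of its neighbour Ccl9. Its span overlaps E230016K23Rik on the other strand.

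Ccl3 stood at 3.72 and 2.74 CPM untreated against 2.77 and 2.53 with Dox at 6 h, at 7.90 and 7.09 against 4.69 and 3.59 at 12 h and at 16.9 and 20.1 against 6.17 and 3.88 at 24 h. Its log2 fold change was -0.79 ± 0.19 at 12 h (adjusted p = 0.0086) and -1.82 ± 0.17 at 24 h (3.1e-09). At 12 h the adjusted p was 0.053 with untreated replicate 1 left out and 0.069 with Dox replicate 2 left out. Ccl4 had only 2 to 10 counts in each library of 6 h, too few to compare. It stood at 0.997 and 0.727 CPM against 0.531 and 0.192 at 12 h (adjusted p = 0.28) and at 4.08 and 2.76 against 0.788 and 1.29 at 24 h, which gave -1.76 ± 0.38 on the log2 scale (adjusted p = 0.0017). Without Dox replicate 1 of 24 h the adjusted p of Ccl4 was 0.078.

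**Figure D3:**
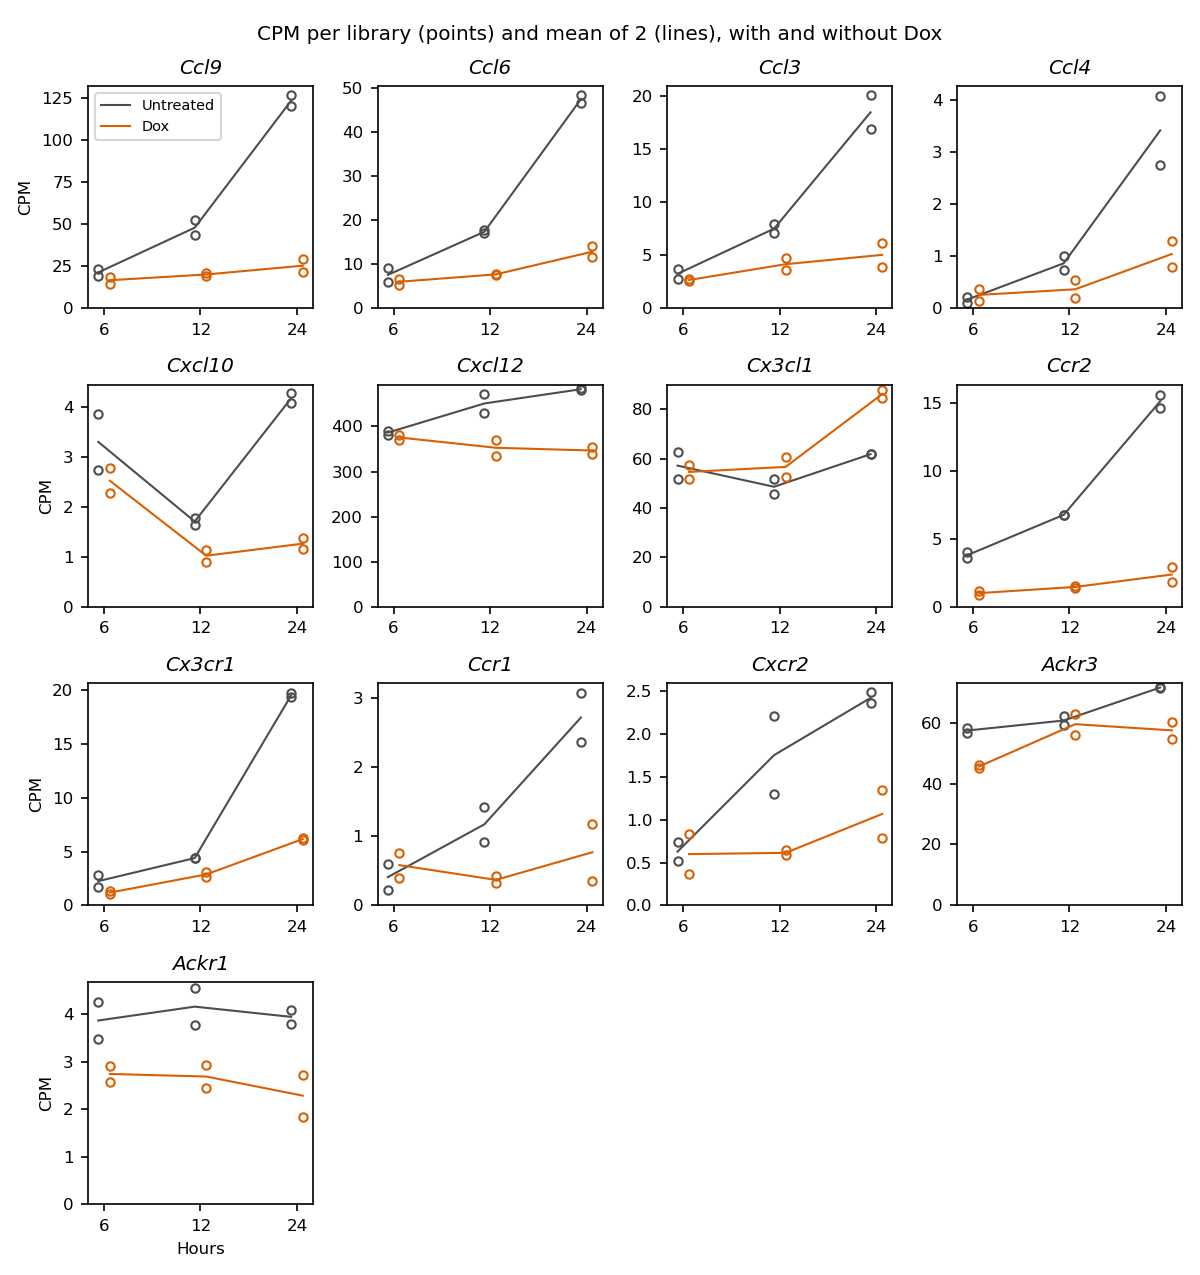
CPM per library (points) and mean of the 2 libraries (lines) against hours, drawn at equal steps, for 13 genes called in a Dox comparison; grey is untreated and orange is Dox, and each panel starts at 0. Ccl9 reached 120 and 127 CPM in untreated cells at 24 h and 29.1 and 21.4 CPM with Dox, while Cx3cl1 was higher with Dox at 24 h.

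The difference between Dox and untreated cells changed over time for Ccl9, Ccl6 and Ccl3, by a test of its change between hours. From 6 to 24 h the log2 effect shifted by -1.91 ± 0.17 for Ccl9, -1.47 ± 0.21 for Ccl6 and -1.47 ± 0.30 for Ccl3. With Cxcl12 (-0.44) and Cx3cl1 (0.52) these were 5 of 25 genes called, 4 downward and 1 upward, against 2.08% of all tested genes (1.45% downward and 0.626% upward). From 12 to 24 h, 4 genes passed, all downward, against 1.21% of all (1.02% downward and 0.189% upward): Ccl9 (-1.0), Ccl3 (-1.03), Cx3cr1 (-1.02) and Ccl6 (-0.74). None of these 4 calls passed in every alternative fit described at the end. DESeq2 lost those of Cx3cr1, Ccl3 and Ccl6 (adjusted p = 0.10, 0.12 and 0.11), and limma on RPKM lost all 4. From 6 to 12 h, Ccl9 alone passed (-0.90), against 0.417% of all (0.222% downward and 0.195% upward). That call was lost in DESeq2 (adjusted p = 0.12) and in limma on RPKM (0.42). The fits share libraries, since each hour enters more than 1 of these differences.

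Ccl9, Ccl6, Ccl3 and Ccl4 lie in one block of chromosome 11. In the coordinates of the count table (GRCm38) the CC ligand genes there form a block of 6 from Ccl2 to Ccl1 (chr11:82035571-82305690, 270.12 kb) and, 1220.087 kb further on, a block of 5 from Ccl5 to Ccl4 (chr11:83525778-83664683, 138.906 kb). In the first block the tested genes were Ccl2 and Ccl7, and neither passed at 24 h. In the second all 4 tested genes, Ccl9, Ccl6, Ccl3 and Ccl4, were lower, by -1.76 to -2.26 on the log2 scale. Ccl5, the remaining gene of that block, had 8 counts in all and was not tested.

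**Figure D4:**
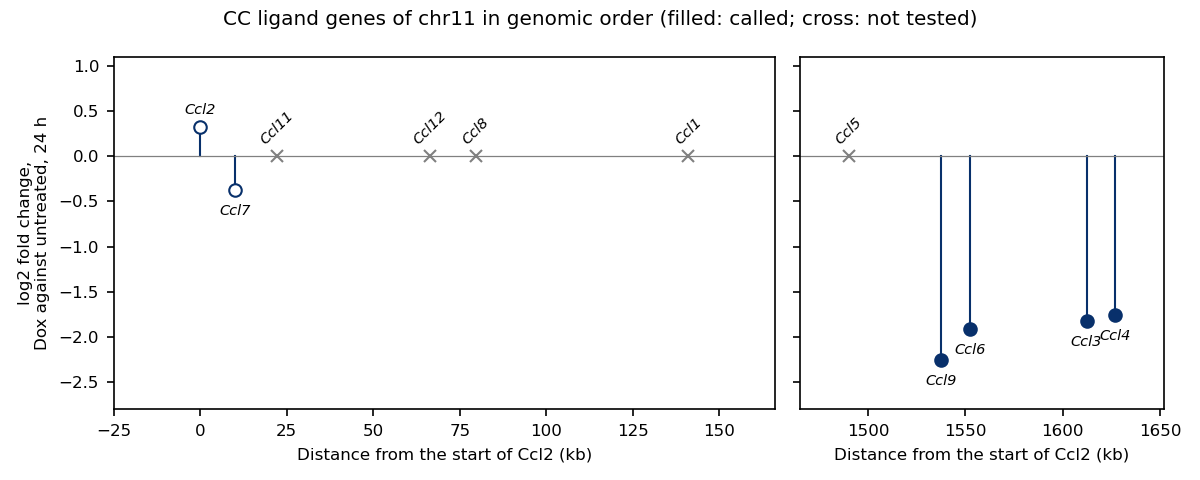
Log2 fold change of Dox against untreated cells at 24 h (y axis) of the CC ligand genes of chromosome 11 against the distance of each gene's lower coordinate from that of Ccl2, in kb, with the stretch between the blocks left out; filled points passed an adjusted p of 0.05, open points did not and crosses were not tested. Ccl2 and Ccl7 lie at 0.33 and -0.37, and Ccl9, Ccl6, Ccl3 and Ccl4 between -1.76 and -2.26.

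The sequences before the starts of Ccl9, Ccl6, Ccl3 and Cxcl10, the ligands whose levels parted most between untreated and Dox cells and for which a promoter was given, are shown for what they hold in common. Each is the 250 bases before the RefSeq start (GRCm38.p6), 5′ to 3′ on the gene's strand. Capitals mark matches, on either strand, to the RUNX motif TGNGGT, the SOX motif ACAATG, the interferon-stimulated response element (GAAA, any 2 bases, then GAAA) or the NF-kB motif (GGG, any 2 bases, then TTTCC).
Ccl9, chr11:83578637-83578886, minus strand: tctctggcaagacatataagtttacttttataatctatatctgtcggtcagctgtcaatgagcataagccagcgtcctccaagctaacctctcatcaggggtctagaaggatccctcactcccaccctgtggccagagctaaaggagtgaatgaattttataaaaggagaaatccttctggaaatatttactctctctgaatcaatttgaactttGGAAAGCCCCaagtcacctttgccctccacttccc
Ccl6, chr11:83593088-83593337, minus strand: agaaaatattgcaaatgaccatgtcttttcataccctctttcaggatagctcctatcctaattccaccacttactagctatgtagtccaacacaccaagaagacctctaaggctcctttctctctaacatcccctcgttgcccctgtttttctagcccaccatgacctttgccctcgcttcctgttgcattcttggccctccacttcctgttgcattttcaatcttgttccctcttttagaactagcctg
Ccl3, chr11:83649379-83649628, minus strand: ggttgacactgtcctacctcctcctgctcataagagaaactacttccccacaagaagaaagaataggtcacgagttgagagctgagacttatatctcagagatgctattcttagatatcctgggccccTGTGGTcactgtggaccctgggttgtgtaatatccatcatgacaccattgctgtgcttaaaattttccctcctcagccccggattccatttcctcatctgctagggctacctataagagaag
Cxcl10, chr5:92348890-92349139, minus strand: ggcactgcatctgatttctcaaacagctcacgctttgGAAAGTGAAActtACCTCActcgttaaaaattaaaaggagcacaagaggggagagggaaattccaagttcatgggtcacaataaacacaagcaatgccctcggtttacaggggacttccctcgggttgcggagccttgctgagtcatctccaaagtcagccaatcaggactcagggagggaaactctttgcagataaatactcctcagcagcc

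No motif was shared by all 4 windows. Ccl9 held 1 NF-kB match, Ccl3 1 RUNX match, Cxcl10 1 interferon element and 1 RUNX match, and Ccl6 none of the 4 motifs. RefSeq windows were matched by symbol for 45 of the 59 genes and for 19 of the 25 tested. The RUNX motif occurred in 11 of these 19 genes, and in 40.1% of all 32851 promoter windows. A gene was counted with a match in any of its windows (Ccl25 had 2 and Ccl27a 3), while the percentages count windows. The interferon element occurred in 1 of 19 (2.98% of all), the NF-kB motif in 2 of 19 (1.41%) and the SOX motif in none of the 19 (10.7%). A match is a run of letters and not a measured site. Each motif was searched only in the form given above. Sites of another form, NF-kB sites among them, were therefore not counted or marked, and a window without a match may hold them.

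Ccl2 and Ccl7, the CCR2 ligands that recruit monocytes, did not follow this pattern. Ccl2 stood at 16.3 and 15.6 CPM untreated against 16.7 and 18.2 with Dox at 6 h, at 12.6 and 12.4 against 13.8 and 14.6 at 12 h and at 14.2 and 15.0 against 20.4 and 15.7 at 24 h. The Dox libraries were the higher ones at every hour without overlap, but no hour passed, and the 24 h difference was 0.33 ± 0.12 on the log2 scale (adjusted p = 0.066). Without Dox replicate 2 of that hour it was 0.48 (0.0079), so 1 library decided the call. Ccl7 stood at 6.74 and 5.93 CPM untreated against 6.44 and 6.21 with Dox at 6 h, at 6.196 and 5.87 against 5.73 and 6.74 at 12 h and at 8.01 and 9.68 against 7.88 and 5.60 at 24 h. Its groups overlapped at 6 and 12 h, and at 24 h the difference was -0.37 ± 0.16 (adjusted p = 0.17), or -0.68 (0.039) without Dox replicate 1.

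Ccl17 stood at 11.7 and 11.0 CPM untreated against 10.9 and 12.1 with Dox at 6 h, at 13.2 and 12.1 against 8.49 and 12.2 at 12 h and at 13.1 and 12.7 against 12.7 and 14.2 at 24 h. The groups overlapped at every hour, and the 95% interval at 24 h ran from -0.23 to 0.33 on the log2 scale. At 12 h the adjusted p was 0.17, and without the higher Dox library, replicate 2, the difference was -0.56 (0.022). Ccl25, a ligand of CCR9 known from thymus and gut, ranged from 3.81 to 5.89 CPM over the 12 libraries and had an interval of -0.31 to 0.50 at 24 h. Ccl27a had 1 to 19 counts in each library and a difference of -2.20 ± 0.78 on the log2 scale at 6 h (adjusted p = 0.21). It overlaps Il11ra1 on the other strand, and the strand setting of the counting is not given in the sources used here.

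Among the CC receptors, Ccr2, the receptor of CCL2 and CCL7 that marks inflammatory monocytes, was lower with Dox by the most and from the earliest hour. It stood at 4.04 and 3.56 CPM untreated against 0.831 and 1.18 with Dox at 6 h, at 6.77 and 6.78 against 1.51 and 1.41 at 12 h and at 14.7 and 15.6 against 2.96 and 1.79 at 24 h. The groups did not overlap at any hour, and the Dox libraries of 24 h remained below the untreated libraries of 6 h. Its log2 fold change was -1.87 ± 0.26 at 6 h (adjusted p = 3.6e-05), -2.19 ± 0.21 at 12 h (3.1e-08) and -2.58 ± 0.19 at 24 h (1.3e-11), which is 3.66-, 4.58- and 5.99-fold lower.

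Ccr1, a receptor of CCL3 and other inflammatory CC ligands, was near 1 CPM and rested on few counts. Ccr1 stood at 0.597 and 0.222 CPM untreated against 0.762 and 0.404 with Dox at 6 h, at 0.926 and 1.42 against 0.419 and 0.321 at 12 h and at 3.07 and 2.37 against 1.18 and 0.359 at 24 h. The groups overlapped at 6 h alone. On the log2 scale Ccr1 differed by -1.67 ± 0.50 at 12 h (adjusted p = 0.039) and -1.59 ± 0.41 at 24 h (0.0074). The 12 h call was lost without either Dox library or untreated replicate 2 (adjusted p = 0.12 to 0.40), and the 24 h call without untreated replicate 1 (0.068) or Dox replicate 2 (0.10).

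Ccr4, the CCL17 receptor of T cells, and Ccr7, the lymph node homing receptor, passed at no hour and ranged from 0.591 to 1.51 CPM and from 1.60 to 3.04 CPM. Their 95% intervals at 24 h ran from -0.95 to 0.84 and from -0.69 to 0.49 on the log2 scale, so changes within these limits are not excluded.

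The CX3C pair differed from untreated cells in opposite directions at 24 h. Cx3cr1, the fractalkine receptor of monocytes and macrophages, stood at 2.81 and 1.70 CPM untreated against 1.32 and 1.07 with Dox at 6 h, at 4.42 and 4.39 against 2.63 and 3.14 at 12 h and at 19.4 and 19.7 against 6.24 and 6.10 at 24 h. The groups did not overlap at any hour. Its log2 fold change was -1.05 ± 0.27 (adjusted p = 0.036), -0.64 ± 0.20 (0.044) and -1.66 ± 0.15 (2.6e-09). The 6 h call was lost without untreated replicate 1 (0.70) or either Dox library (0.066 and 0.48), where the value ranged from -0.56 to -1.18, and the 12 h call without any 1 of its 4 libraries (0.055 to 0.43). The annotated span of Cx3cr1 overlaps Gorasp1 and Csrnp1 on the same strand and Wdr48 on the other, all with more counts than its own 1697, so its count may hold reads of those genes.

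Cx3cl1, whose membrane-bound product on endothelium catches cells that carry CX3CR1, stood at 51.9 and 62.5 CPM untreated and 52.0 and 57.4 with Dox at 6 h. At 12 h it stood at 45.6 and 51.7 CPM against 52.7 and 60.8 (adjusted p = 0.17), and at 24 h at 61.8 and 62.0 against 84.5 and 87.9. The log2 fold change at 24 h was 0.48 ± 0.08 (adjusted p = 8.5e-05), or 1.39-fold higher, with no overlap. Endothelial markers were also higher with Dox at 24 h: 6 of 10 passed upward, led by Cdh5 (0.50), beside 4.50% of all tested genes. Kdr (0.10), Emcn (-0.24), Cldn5 (-0.15) and Eng (-0.10) did not pass. The summed level of the 10 was 2421 to 2530 CPM against 2058 to 2088 in untreated cells. At 12 h 5 were higher, beside 3.26% of all tested genes, and Eng was lower (-0.18), with 2634 to 2750 CPM against 2233 to 2461. At 6 h 2 were higher, beside 0.821% of all, with 2804 to 3005 CPM against 2618 to 2633, while Cx3cl1 had overlapping groups. The part of these markers in the change of Cx3cl1 was not tested.

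In the CXCL12 axis the ligand and its scavenger were slightly lower with Dox and the signalling receptor did not pass. Cxcl12 stood at 382 and 391 CPM untreated against 382 and 369 with Dox at 6 h, at 430 and 472 against 335 and 371 at 12 h and at 485 and 480 against 340 and 354 at 24 h. Untreated libraries were higher at each later hour, while Dox libraries did not exceed the 6 h level. The log2 fold change was -0.36 ± 0.05 at 12 h (adjusted p = 4.4e-05) and -0.48 ± 0.05 at 24 h (1.1e-07), or 1.28- and 1.39-fold lower. Mesenchymal and smooth muscle markers, the other group of cells that commonly make CXCL12, were lower for 5 of 8 at 24 h. Over all tested genes 6.52% were lower. The 5 markers were Dcn (-1.15), Col3a1 (-0.62), Postn (-0.48), Col1a1 (-0.38) and Pdgfrb (-0.18). The other 3, Pdgfra (0.22), Acta2 (0.04) and Tagln (0.08), did not pass. The summed level was 8902 to 8938 CPM against 9488 to 9754. At 12 h Acta2 (-0.20) and Tagln (-0.32) were lower, beside 3.51% of all tested genes, and 6 markers were not called. Of these, Pdgfra (0.26), Col3a1 (0.26) and Postn (0.07) lay above 0. Pdgfrb (-0.13), Col1a1 (-0.02) and Dcn (-0.01) lay under 0. The summed level of these markers at 12 h was 6857 to 7618 CPM against 7908 to 8199. Their part in the lower level of Cxcl12 with Dox was not tested.

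Ackr3 stood at 56.5 and 58.3 CPM untreated against 45.04 and 46.1 with Dox at 6 h, at 62.2 and 59.1 against 62.9 and 56.1 at 12 h and at 71.6 and 71.5 against 54.6 and 60.3 at 24 h. It was lower at 6 h (log2 fold change -0.33 ± 0.07, adjusted p = 0.013) and at 24 h (-0.32 ± 0.07, 0.0017), while at 12 h the groups overlapped (-0.02 ± 0.07, 0.93). The change of the Dox effect between these hours did not pass. The 6 h call was lost without any 1 of its 4 libraries (0.071 to 0.12) and the 24 h call without Dox replicate 1 (0.085). Cxcr4 stood at 20.6 and 19.2 CPM untreated against 18.4 and 20.8 at 6 h, at 32.3 and 32.4 against 31.8 and 30.0 at 12 h and at 30.1 and 26.1 against 32.1 and 28.4 at 24 h. The 95% interval of its log2 fold change at 24 h ran from -0.06 to 0.32.

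Cxcl10, the interferon-induced ligand of CXCR3, was lower with Dox at 24 h. It stood at 3.86 and 2.74 CPM untreated against 2.77 and 2.28 at 6 h, at 1.78 and 1.64 against 1.15 and 0.898 at 12 h and at 4.08 and 4.28 against 1.38 and 1.15 at 24 h. The untreated level was lower at 12 h than at 6 h by -1.01 on the log2 scale (adjusted p = 0.014), a call lost in DESeq2 (0.055) and without untreated replicate 1 of 6 h (-0.70, 0.36) or untreated replicate 2 of 12 h (0.16). It rose from 12 to 24 h (1.31), while the Dox libraries of 12 and 24 h stood at no more than 1.38 CPM. Cxcl10 overlaps Art3 on the other strand. The log2 fold change at 24 h was -1.69 ± 0.27 (adjusted p = 2.6e-05), or 3.23-fold lower. The interferon response genes, such as Ifit1 (-2.77) and Rsad2 (-2.09), were lower for 22 of 22 at 24 h and for 8 of 22 at 12 h. Over all tested genes 6.52% were lower at 24 h and 3.51% at 12 h. All 22 interferon response genes had risen from 12 to 24 h in untreated cells, beside 12.2% of all tested genes. Their summed level at 24 h was 506 to 536 CPM untreated and 194 to 200 with Dox, and at 6 h 140 to 153 CPM and 147 to 157. Their part in the change of Cxcl10 was not tested. Cxcl9 and Ccl5, other chemokines that interferon induces, had no counts and 8 counts.

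Of the remaining CXC genes, Cxcl1, a ligand that draws neutrophils and ranged from 2.68 to 6.11 CPM, passed at no Dox hour, and its receptor Cxcr2 was lower at 12 and 24 h. Cxcr2 stood at 0.737 and 0.519 CPM untreated against 0.831 and 0.367 with Dox at 6 h, at 2.208 and 1.30 against 0.587 and 0.642 at 12 h and at 2.36 and 2.49 against 1.35 and 0.790 at 24 h. The differences at 12 and 24 h were -1.44 ± 0.41 (adjusted p = 0.031) and -1.10 ± 0.36 (0.048) on the log2 scale. The 12 h call was lost without untreated replicate 1 or either Dox library (0.078 to 0.28), and the 24 h call without any 1 of its 4 libraries (0.051 to 0.28). Cxcl16 and its receptor Cxcr6 passed at no hour, and Cxcr6 ranged from 6.52 to 10.9 CPM. Cxcl16 stood at 9.37 and 8.95 CPM against 11.8 and 12.3 at 24 h, where the libraries did not overlap (log2 fold change 0.40 ± 0.14, adjusted p = 0.074). Both overlap other genes on the opposite strand, Zmynd15 and Fyco1.

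Ackr1, the atypical receptor of venules and red cells that carries inflammatory chemokines, stood at 4.25 and 3.48 CPM untreated against 2.91 and 2.57 with Dox at 6 h, at 3.77 and 4.54 against 2.93 and 2.44 at 12 h and at 3.79 and 4.10 against 1.84 and 2.73 at 24 h. The groups did not overlap at any hour. Only the 24 h difference passed (-0.87 ± 0.24, adjusted p = 0.013, or 1.83-fold lower), and it was lost without Dox replicate 1 (0.29) or untreated replicate 2 (0.15). Erythroid markers were lower for 6 of 7 and higher for 1, Hbb-y (0.26), at 24 h. At 12 h 3 were lower and 2 higher, Hbb-y (1.47) and Alas2 (0.44), and at 6 h 3 were lower and Hbb-y higher (0.61). Over all tested genes 6.52% were lower and 4.50% higher at 24 h. The shares were 3.51% and 3.26% at 12 h and 0.717% and 0.821% at 6 h. The summed level of these markers was 1604 to 1784 CPM untreated against 1030 to 1254 with Dox at 24 h, and 972 to 1583 against 1575 to 1695 at 12 h. Their part in the change of Ackr1 was not tested.

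Levels also changed with time in untreated cells. From 6 to 12 h, 8 of the 25 genes rose in untreated cells and Cxcl10 fell, against 7.46% of all tested genes (4.39% higher and 3.07% lower). The 8 were Ccl3, Ccl4, Ccl6, Ccl9, Ccr2, Cx3cr1, Cxcl12 and Cxcr4. From 12 to 24 h, 11 rose, against 22.4% of all (12.2% higher and 10.2% lower): Ackr3, Ccl3, Ccl4, Ccl6, Ccl7, Ccl9, Ccr1, Ccr2, Cx3cl1, Cx3cr1 and Cxcl10. The largest log2 rises in this step were those of Cx3cr1 (2.15 ± 0.16), Ccl4 (2.00 ± 0.39) and Ccl6 (1.46 ± 0.12). Without 1 of the untreated libraries there were 5 to 8 calls in the first step, in place of 9, and 8 to 9 in the second, in place of 11. The calls lost without a library were those of Ccl4 (adjusted p up to 0.32), Ccr2 (0.063), Cx3cr1 (0.11), Cxcl10 (0.36) and Cxcl12 (0.16) in the first step and of Ackr3 (0.15), Ccl7 (0.23), Ccr1 (0.19) and Cx3cl1 (0.063) in the second.

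The mean level at 24 h over that at 6 h, which was not tested, was 5.82 for Ccl9 in untreated cells and 1.52 with Dox. It was 6.29 and 2.14 for Ccl6, 5.72 and 1.89 for Ccl3, 3.99 and 2.37 for Ccr2 and 8.66 and 5.18 for Cx3cr1. Of the 13 genes lower with Dox at 24 h, 10 (76.9%) had risen in untreated cells in at least 1 of the steps, beside 62.9% of all 1000 genes lower with Dox at that hour. A Dox mean at 24 h below the untreated mean at 12 h was found for 11 (84.6%), beside 74.0% of those 1000. The Dox and the untreated comparisons share the untreated libraries, so a gene that is high in the untreated libraries of 24 h tends to enter both counts, and the shares of the 13 genes are read only against those of the 1000. Cx3cr1 and Ccl4 were the exceptions, with Dox means at 24 h above the untreated means at 12 h.

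Markers of other cell types moved in the same hours. Of 9 tested macrophage and monocyte markers, 6 were lower with Dox at 24 h, beside 6.52% of all tested genes. Among the 6 were Itgam (-2.10), Cd14 (-2.20) and Csf1r (-1.19). Lyz2 (0.12), Mertk (-0.17) and Mrc1 (-0.23) did not pass. At 12 h Cd14 was lower (-1.28) and Lyz2 higher (0.73), and at 6 h Lyz2 was higher (0.92). Over all tested genes 3.51% were lower and 3.26% higher at 12 h, and 0.821% were higher at 6 h. The summed level of the 11 listed macrophage markers was 89.6 to 93.4 CPM untreated against 51.9 to 54.2 with Dox at 24 h, 65.6 to 71.6 against 65.8 to 78.3 at 12 h and 56.7 to 59.0 against 61.8 to 68.2 at 6 h. Single markers did not move alike at 12 h, and the median of the 9 was -0.17. Itgam (-0.45), Csf1r (-0.45), Emr1 (-0.69) and Fcgr1 (-0.17) had values under 0 that did not pass. Mertk (0.51), Mrc1 (0.11) and Cd68 (0.09) had values above 0 that did not pass. The part of macrophages in the lower levels of the CC ligands and receptors with Dox was not tested.

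Of the other lists, the megakaryocyte and platelet markers were lower for 5 of 5 tested at 24 h (Tubb1, -1.56), 1 at 12 h and 2 at 6 h. Over all tested genes 6.52% were lower at 24 h, 3.51% at 12 h and 0.717% at 6 h. Mpo, the 1 tested neutrophil marker, was lower at all 3 hours (-0.66, -0.87 and -1.60), while Ly6g, S100a9 and Camp had no counts. No T and NK cell marker passed the filter on low counts, and Cd3e, Cd3g, Cd4 and Ncr1 had no counts. The 1 tested B cell marker and the 1 tested dendritic cell marker passed at no hour, and Ms4a1 and Pax5 had no counts. Of 2 tested mast cell and basophil markers Kit was lower at 24 h (-0.60), and so was Sox2 (-0.92) of 3 tested pluripotency markers and Krt8 (-0.21, and -0.19 at 12 h) of 6 epithelial and endodermal markers.

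Of 37 tested genes that relay or shorten the signal of chemokine receptors, 17 were lower, 2 higher and 18 not called with Dox at 24 h. Over all tested genes 6.52% were lower and 4.50% higher. Their median log2 fold change was -0.33, beside -0.01 over all. The lowest adjusted p were those of Ptk2b (-0.95), a focal adhesion-related kinase, the Src-family kinases Fgr (-1.76) and Lyn (-0.42), and Vav1 (-1.32), an exchange factor for Rac. Tiam1 (0.29), another Rac exchange factor, and Rgs3 (0.38), which shortens G protein signals, were the 2 that were higher. Other genes of the Rgs family were lower at 24 h: Rgs1 (-2.45), Rgs14 (-2.00), Rgs18 (-1.43) and Rgs2 (-0.39). Rgs19 (0.02) was not called. At 12 h 5 were lower, with Ptk2b (-0.65) and Rap1b (-0.33) at the front. The haematopoietic GTPase Rac2 (1.33), Tiam1 (0.19) and Rgs3 (0.24) were the 3 that were higher at that hour. Over all tested genes 3.51% were lower and 3.26% higher at 12 h. At 6 h Rgs2 (0.34) was higher, and it was lower at 24 h (-0.39).

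Of 7 tested chemokine-related genes whose symbols do not follow the family names, Gpr182, an atypical chemokine receptor of endothelium, was lower at 6 h. It ranged from 18.997 to 21.0 CPM untreated and 9.56 to 11.5 with Dox. The difference was -0.89 ± 0.12 on the log2 scale (adjusted p = 2.8e-05), and Gpr182 passed at neither later hour. Pf4, the platelet chemokine CXCL4, was lower at 24 h, from 1.93 to 3.70 CPM to 0.431 to 0.624 (log2 fold change -2.40 ± 0.46, adjusted p = 0.00034). Of 15 tested genes that respond to NF-kB, a common inducer of Ccl2 and Cxcl1, Icam1 was lower (-0.31) and Vcam1 higher (0.47) at 24 h. The other 13 were not called, and the median of the 15 was -0.07, beside -0.01 over all tested genes. Over all tested genes 11.0% were called at 24 h, 6.76% at 12 h and 1.54% at 6 h. At 12 h Tnfaip2 and Icam1 were lower (-0.24 and -0.38) and Nfkb1 higher (0.22), and at 6 h Tnfaip2 was lower (-0.32).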

How the data were processed

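RNA of 12 libraries (6 groups of 2, by Dox and hour) was analysed. Strand-specific libraries (200 ng of RNA, 14 amplification cycles) gave single reads of 75 bases, per the labels' protocols. The submitters' processing notes name edgeR 3.8.5, Bowtie2 2.21 and the build GRCm38. How reads were counted per gene, with which strand setting and annotation, is not given in the sources used here. Raw counts of 41128 genes were deposited by the authors. RPKM values of those genes were deposited as well, and the library factors they imply lay within 1.33% of the effective library sizes.

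The counts were fitted with edgeR 4.0.16 in R 4.3.3: filterByExpr kept 15347 genes, libraries were scaled by TMM, and the quasi-likelihood fit used the 12 libraries together with 1 mean for each group (6 residual degrees of freedom). Benjamini-Hochberg adjustment ran over the 15347 genes, and an adjusted p under 0.05 was called. A standard error (SE) is the log2 fold change divided by the root of its F statistic. The code was tested on simulated counts. Replicate libraries differed by more than sampling noise in every group (chi-square per degree of freedom 2.63 to 4.61). Depth sets the limit for genes near 1 CPM.

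The chemokine and receptor genes (the members) and the lists (chemokine receptor signalling, chemokine genes outside the family names, interferon and NF-kB response, markers of 12 cell types) were chosen with earlier results of these data known. Values per library are given for members called in any comparison and for the 10 highest in mean RPKM, other members by range, and from other lists the genes with the smallest adjusted p or against the list's direction. One member enters the counts and medians and is not reported here. Motifs were searched in RefSeq promoter windows. Alternatives were other scalings (RLE, upper quartile), the replicate number as a block, no filter or a filter of 1 CPM in 4 libraries, DESeq2 1.42.0, limma 3.58.1 on log2(RPKM + 0.1), leaving out 1 library, and depth class as a covariate, which was added after the totals were seen.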

Additional observations from a re-analysis of the deposited data

Results flagged for a closer look

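The results below were singled out because the Dox effect differed between hours by the test of that difference in edgeR's quasi-likelihood fit, adjusted over all 15347 genes. From 6 to 24 h the log2 effect changed by -1.91 for Ccl9 (adjusted p = 7.9e-09), -1.47 for Ccl6 (3.8e-05), -1.47 for Ccl3 (0.0040), -0.44 for Cxcl12 (0.00085) and 0.52 for Cx3cl1 (0.012). From 12 to 24 h it changed by -1.0 for Ccl9 (0.00038), -1.02 for Cx3cr1 (0.037), -1.03 for Ccl3 (0.039) and -0.74 for Ccl6 (0.043). From 6 to 12 h it changed by -0.90 for Ccl9 (0.011). The directions held without any 1 library. Of these 10, only the 4 from 6 to 24 h for Ccl9, Ccl6, Ccl3 and Cxcl12 passed in every alternative that was run.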

How the results depend on the processing

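No call of a chemokine or receptor gene changed direction in any alternative. Calls that passed in all alternatives with an adjusted p were 1 of 3 at 6 h (Ccr2), 4 of 8 at 12 h (Ccl6, Ccl9, Ccr2 and Cxcl12) and 8 of 14 at 24 h (Ccl3, Ccl6, Ccl9, Ccr2, Cx3cl1, Cx3cr1, Cxcl10 and Cxcl12). The count of 24 expressed genes was 25 at 0.5 CPM, 22 at 2 CPM, 20 at 1 RPKM and 23 to 24 with 1 replicate number left out. limma on RPKM called 1 of the chemokine and receptor genes (the members) and 78 of all genes at 6 h (3 and 236 in edgeR), 4 and 354 at 12 h (8 and 1038), 0 and 4 for the change from 6 to 12 h (1 and 64), 0 and 6 for 12 to 24 h (4 and 185), 139 of all genes for 6 to 24 h (319) and 531 of all for untreated cells at 12 against 6 h (1145). At an unadjusted p under 0.05, the changes from 6 to 12 h and from 12 to 24 h had 7 and 6 members in limma, 5 and 5 in DESeq2 and 6 and 8 in edgeR. DESeq2 called 5 members at 12 h and 1 for the change from 12 to 24 h. Without a filter 3 members and 255 of all genes were called for the change from 6 to 12 h, and 356 of all for 12 to 24 h. The cause was not tested.

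Leaving out 1 library left, for members and all genes, 1 to 2 and 87 to 183 calls at 6 h, 5 to 6 and 404 to 747 at 12 h, 10 to 13 and 1065 to 1460 at 24 h, 0 to 2 and 12 to 179 for the change from 6 to 12 h, 1 to 2 and 73 to 257 for 12 to 24 h, 4 to 5 and 178 to 285 for 6 to 24 h, 5 to 8 and 395 to 699 for untreated 12 against 6 h, and 8 to 9 and 2072 to 2577 for untreated 24 against 12 h. A lone library was assumed to vary like the other groups.

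Libraries of the same replicate number did not deviate together (correlation over 10334 genes -0.27 at 6 h, 0.08 at 12 h and 0.06 at 24 h). The numbers were therefore not used to pair them in the main fit. At each hour the untreated and Dox libraries of the same number differed in depth, so this check cannot exclude a pairing. With the replicate block 2 members in place of 1 were called for the change from 6 to 12 h. The covariate for depth class, which at each hour pairs the libraries of unlike number, called 7 members at 12 h in place of 8.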
